A study of Homo sapiens with 4 samples.

Results

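Box C/D small nucleolar RNAs (snoRNAs), which carry the gene symbol SNORD, were described in human HT1080 fibrosarcoma cells as the genes whose symbol starts with SNORD and a digit and that a probe set of the array named alone. The rule was met by 115 of the 18417 genes measured, each with 1 probe set, and no SNORD gene shared all of its values with another. Of the 115, 46 belong to the 4 tandem families SNORD113 (2 genes), SNORD114 (4), SNORD115 (20) and SNORD116 (20). The other 69, called the dispersed SNORD genes here, lie mostly within introns of unrelated genes and include the 3 pseudogenes SNORD13P1, SNORD13P2 and SNORD13P3. A further 49 probe sets name a SNORD gene together with other genes and were left out, among them all probe sets for the U3 genes SNORD3A to SNORD3D. No probe set for U8 (SNORD118) was analysed here.

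There were 4 groups: total RNA under control conditions, total RNA in hypoxia, ER-RNA under control conditions and ER-RNA in hypoxia. Control cells were held at 21% oxygen and hypoxic cells at 1% oxygen for 36 h, and all groups shared 5% CO2, 37 °C and 0.4% serum. ER-RNA is the RNA recovered with an endoplasmic reticulum (ER) fraction prepared with a commercial kit, and the methods add that cells used for fractions were briefly exposed to cycloheximide, which arrests translating ribosomes. Each group was 1 array loaded with RNA pooled from 5 experiments in this single cell line, so there is no replicate check, no spread between experiments and no p-value. How few arrays there are sets the precision of each value. All values are on the log2 scale after RMA, the normalization the authors used. A difference of 0.49 on that scale is a fold change of 1.4.

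The arrays were checked against their labels with short marker lists. Of 4 genes known to be induced by low oxygen, 3 were called higher in hypoxia in both fractions, as defined below. The array median was 7.41 and 7.49 in total RNA but 6.25 and 6.34 in ER-RNA, so a difference between fractions was read only against the median of all genes, which was -1.11 under control conditions. The label of the ER fraction was not borne out by ER-RNA minus total RNA: 8 mRNAs of secretory-pathway proteins had a median of -2.0 and 6 mRNAs of cytosolic proteins one of -0.17. ER-RNA is therefore used below as the name of a fraction, without reading it as RNA bound to the ER. The paper assessed the purity of the fraction by western blots of ER and cytosolic marker proteins, which these mRNA values do not measure. Of 4 measured RNAs known from the nucleus or nucleolus, ER-RNA minus total RNA ranged from -2.21 for MALAT1 to 1.21 for RPPH1. The epithelial markers EPCAM and CDH1 did not pass the expression filter, while KRT8 and KRT18 did.

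Box C/D snoRNAs are short nucleolar RNAs that pair with a target RNA and direct the methyltransferase fibrillarin to methylate a ribose there, mostly in ribosomal RNA. Each assembles with fibrillarin, NOP56, NOP58 and SNU13 into a particle. A few, such as U3, U14 (SNORD14) and U13 (SNORD13), are known for their part in processing the ribosomal RNA precursor. Most human box C/D snoRNAs are cut from the introns of host genes as these are spliced, so a random-primed array signal over such a gene can come from the mature snoRNA, from the host intron or from the precursor, and these cannot be told apart here. Many hosts begin transcription with a run of C and T, the terminal oligopyrimidine start typical of ribosomal protein genes. SNORD113 and SNORD114 lie in the imprinted MEG8 region, and SNORD115 and SNORD116 in the imprinted SNHG14 transcript of the Prader-Willi region, which is best known from the brain. Most members of these tandem families have no established ribosomal RNA target, and their near-identical copies may cross-hybridise.

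To show the kind of gene the members are cut from, the first 24 bases from the RefSeq transcription start (GRCh38.p14) are printed for the hosts of at least 3 SNORD genes that are in the sequence table, with the run of C and T at the very start in capitals. RABGGTB (chr1:75786256-75786279, plus strand) holds SNORD45A to SNORD45C, RPL13A (chr19:49487608-49487631, plus strand) holds SNORD32A, SNORD33, SNORD34 and SNORD35A, and RPL3 (chr22:39319600-39319623, minus strand) holds SNORD43, SNORD83A and SNORD83B. GAS5 (chr1:173869022-173869045, minus strand) is a long non-coding RNA whose introns hold 7 members, and SNHG14 (chr15:24823608-24823631, plus strand) spans all 40 measured SNORD115 and SNORD116 genes.
RABGGTB: CCTTTCCCTgttagacatggtaag
RPL13A: CTTTTCCaagcggctgccgaagat
RPL3: CTCTaccggcgggatttgatggcg
GAS5: agatgtgtttattttggagcctac
SNHG14: gccgacctcgaatgcggtcctcct
A start with C followed by a run of C and T of at least 5 bases in all was found for 13 of the 34 hosts of dispersed SNORD genes that are in the table (38.2%), against 5.14% of the 27305 genes with a listed start. RABGGTB and RPL13A have such a run, the run of RPL3 stops at 4 bases, and the listed starts of GAS5 and SNHG14 have none. These letters describe the listed starts only. A gene may have other starts, and whether the listed ones are used in these cells was not tested, also for GAS5. Sequences of the snoRNAs themselves were not analysed here.

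The first question was which snoRNA genes gave a signal above the array's midpoint. A gene passed the expression filter of a fraction when it exceeded the 50% quantile on either of that fraction's arrays, and 53 of the 115 SNORD genes passed in total RNA and 55 in ER-RNA, against 62.6% and 64.5% of all genes. A total of 45 passed in both. Dispersed genes passed with 45 of 69 in total RNA and with 41 of 69 in ER-RNA. None of the 26 measured SNORD113, SNORD114 and SNORD115 genes passed in either fraction, whereas SNORD116 passed with 8 of 20 genes in total RNA and with 14 of 20 in ER-RNA. Of 4 neural genes, SNAP25 and SYT1 passed the filter in total RNA and STMN2 and ELAVL4 did not.

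The tandem families gave very different signals. The SNORD113 gene with the highest mean, SNORD113-3, read 4.47 and 4.01 in total RNA and 3.07 and 2.78 in ER-RNA, with control first and hypoxia second, as in all value lists below. The corresponding SNORD114 gene, SNORD114-26, read 4.91 and 5.23 in total RNA and 4.16 and 4.30 in ER-RNA. SNORD115-32 led its family with 5.24 and 4.85 in total RNA and 3.85 on both ER-RNA arrays. All of these values lie below the midpoint of their arrays. SNORD116-15, from the only tandem family with members above the filter, read 12.88 and 12.75 in total RNA and 13.20 and 13.27 in ER-RNA. Within SNORD116 the copies ran from this level down to SNORD116-18, which read 3.30 and 4.16 in total RNA and 3.01 and 3.42 in ER-RNA, as the plot of copies in their order along the SNHG14 locus shows. Since each copy is read by its own probes, these levels do not rank the abundance of the copies.

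**Figure D1:**
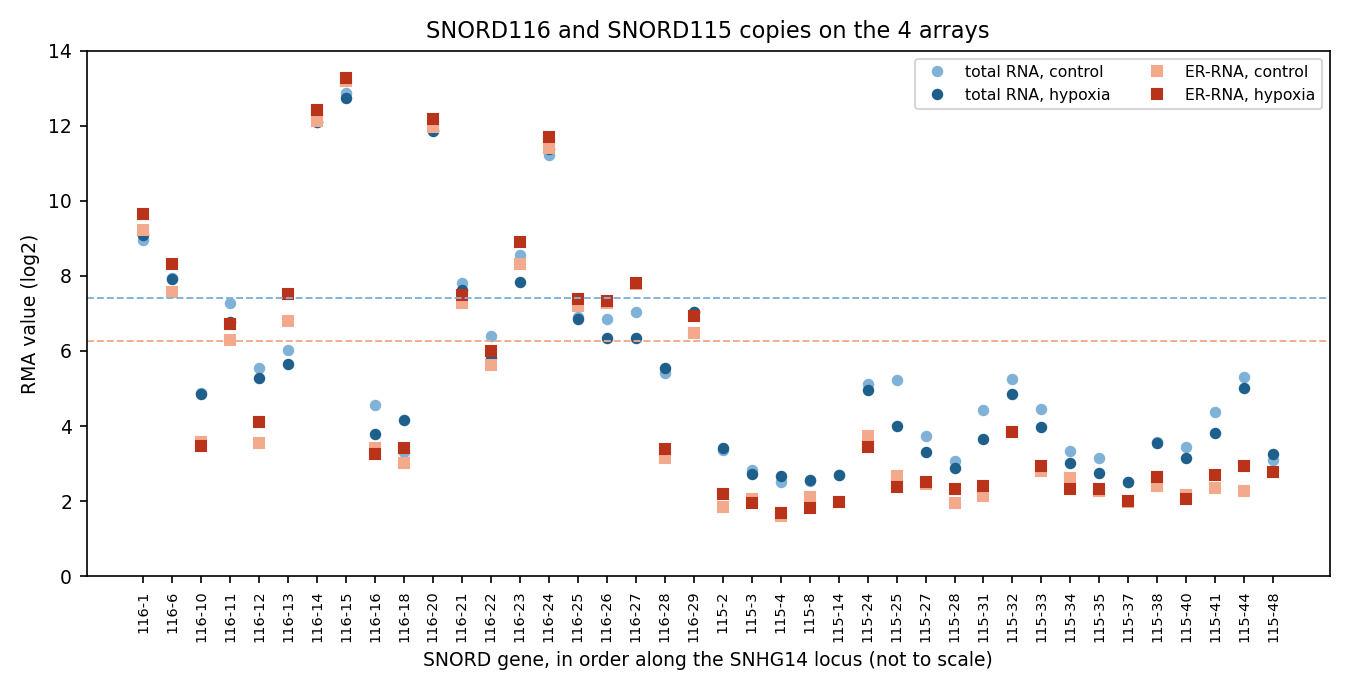
RMA values (log2, y axis) of the 20 SNORD116 and 20 SNORD115 genes on the 4 arrays, in their order along the SNHG14 locus (x axis, not to scale); circles are total RNA, squares ER-RNA, light symbols control and dark symbols hypoxia, and the dashed lines are the medians of the control arrays (7.41 in total RNA, 6.25 in ER-RNA). No SNORD115 gene reaches the lines, while SNORD116-15 stands at 12.75 to 13.27 on the 4 arrays.

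The next question was what hypoxia did to the snoRNA signal in total RNA. A change was called for a gene that passed the filter, changed more than 1.4-fold and had a z-score beyond 3. These thresholds are those of the study's methods. The z-score is the log2 difference over an SD, read here from 1 curve of the SD of both arrays against their mean, whereas the methods fit treatment and control groups apart, so the calls are not the study's own. Of the 53 SNORD genes that passed, 0 were called higher and 6 were called lower, beside 2.32% and 7.45% of all genes that passed, so the share called lower is near that of all genes. The 6 were SNORD78, SNORD58A, SNORD75, SNORD52, SNORD116-23 and SNORD12C. In bulk RNA such as this, fewer cells with a transcript and less of it per cell cannot be told apart. By fold alone 1 was higher, SNORD94 with 0.59 (1.89% against 6.2% of all genes), and 10 were lower, again near the background (18.9% against 18.6%).

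SNORD78, a guide for 28S ribosomal RNA methylation hosted by GAS5, read 8.49 under control conditions and 6.94 in hypoxia in total RNA, a difference of -1.55 (z-score -6.44), and was the largest decrease among the members. SNORD58A, a 28S guide within the ribosomal protein gene RPL17, read 9.03 and 8.01 in total RNA, a difference of -1.02, while RPL17 itself differed by 0.25. SNORD75, another GAS5 guide, read 8.28 and 7.47, and SNORD52, within SNHG32, read 8.11 and 7.36. Both lay below the midpoint of their array in hypoxia, and the differences were -0.80 and -0.76. SNORD116-23 read 8.56 and 7.84 in total RNA, a difference of -0.72. SNORD12C, within ZFAS1, read 8.59 and 7.88, with a difference of -0.71 and a z-score of -3.05, just past the threshold, while ZFAS1 differed by 0.07. With the SD taken from the scaled MAD only SNORD78 was called, and with the filter at the 75% quantile none was. With both arrays required above the 50% quantile SNORD78, SNORD75 and SNORD52 lost their calls.

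The calls were few, but the direction was shared beyond them: 80 of the 115 SNORD genes read lower in hypoxia in total RNA, where 46.8% of all genes did. Among the 53 that passed the filter, 36 read lower, where 55.7% of all genes that passed did. The median difference was small, at -0.11 over all SNORD genes (all genes 0.03) and -0.07 over those that passed (all genes -0.06). The tandem families and the dispersed genes did not part clearly here, with medians of -0.16 and -0.08. Most tandem genes were below the filter, and among those that passed the order was reversed, with -0.04 in 8 tandem and -0.07 in 45 dispersed genes. SNORD94, which guides methylation of the spliceosomal U6 RNA and lies within PTCD3, read 7.66 and 8.26 in total RNA, the highest difference among those that passed. The PTCD3 probe set differed by -0.63.

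In ER-RNA more members read higher in hypoxia than lower. Of the 55 SNORD genes that passed, 3 were called higher and 0 lower, beside 1.12% and 8.25% of all genes. These were SNORD41, SNORD14E and SNORD116-13. By fold alone 8 were higher (14.5% against 6.53% of all genes) and 3 lower, namely SNORD78, SNORD12C and SNORD21 (5.45% against 21.4%). Of the 8, SNORD14E, SNORD32B and SNORD83A read 6.19, 6.17 and 6.18 under control conditions, below the midpoint of that array (6.25). They read 7.07, 6.71 and 6.74 in hypoxia and passed through that array alone, so the count of 8 depends in part on the filter. SNORD21 passed through the control array alone. Of the SNORD genes that passed, 44 of 55 read higher in hypoxia, where 47% of all genes that passed did, and of all 115, 72 did, where 55.3% of all genes did. The median difference was 0.22 over those that passed, where all genes gave -0.04, and 0.11 over all 115, where all genes gave 0.06. With each array centred on its median the latter pair of values was 0.03 and -0.03.

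SNORD41, a 28S guide within TNPO2, read 11.01 and 12.01 in ER-RNA, a difference of 1.00 (z-score 3.77), but 12.54 and 12.42 in total RNA. TNPO2 differed by -0.07 in ER-RNA, so the snoRNA and its host probe set parted. SNORD14E, a U14 copy within HSPA8, read 6.19 and 7.07 in ER-RNA, a difference of 0.88, and 7.32 and 7.21 in total RNA. The second measured U14 copy, SNORD14C, read 11.04 and 11.84 in ER-RNA, a difference of 0.79 that fell short of the z threshold at 2.93, and 11.12 and 10.92 in total RNA. Both U14 copies thus read higher in ER-RNA and lower in total RNA, while HSPA8, the constitutive heat shock chaperone, read lower in both (-0.38 in total RNA, -0.25 in ER-RNA). U14 copies are much alike in sequence and their probe sets may share signal. SNORD116-13 read 6.79 and 7.53 in ER-RNA, a difference of 0.74 with a z-score of 3.06. Its call was lost when the arrays were centred on their medians and when no expression filter was set, and that of SNORD14E when both arrays had to exceed the 50% quantile. Only SNORD41 was called with the filter at the 75% quantile, and none with the scaled MAD.

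SNORD13 (U13), which is transcribed on its own and takes part in 18S ribosomal RNA processing, read 13.48 and 13.40 in total RNA and 13.30 and 13.40 in ER-RNA. Its differences were -0.08 and 0.10, and it was not called. The pseudogene SNORD13P3 read close to it, with 13.40 and 13.21 in total RNA and 12.98 and 13.17 in ER-RNA. Whether its probe set picks up U13 signal was not tested, and it is counted above and below as a gene of its own. SNORD21, within RPL5, gave -0.50 in ER-RNA and 0.05 in total RNA.

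**Figure D2:**
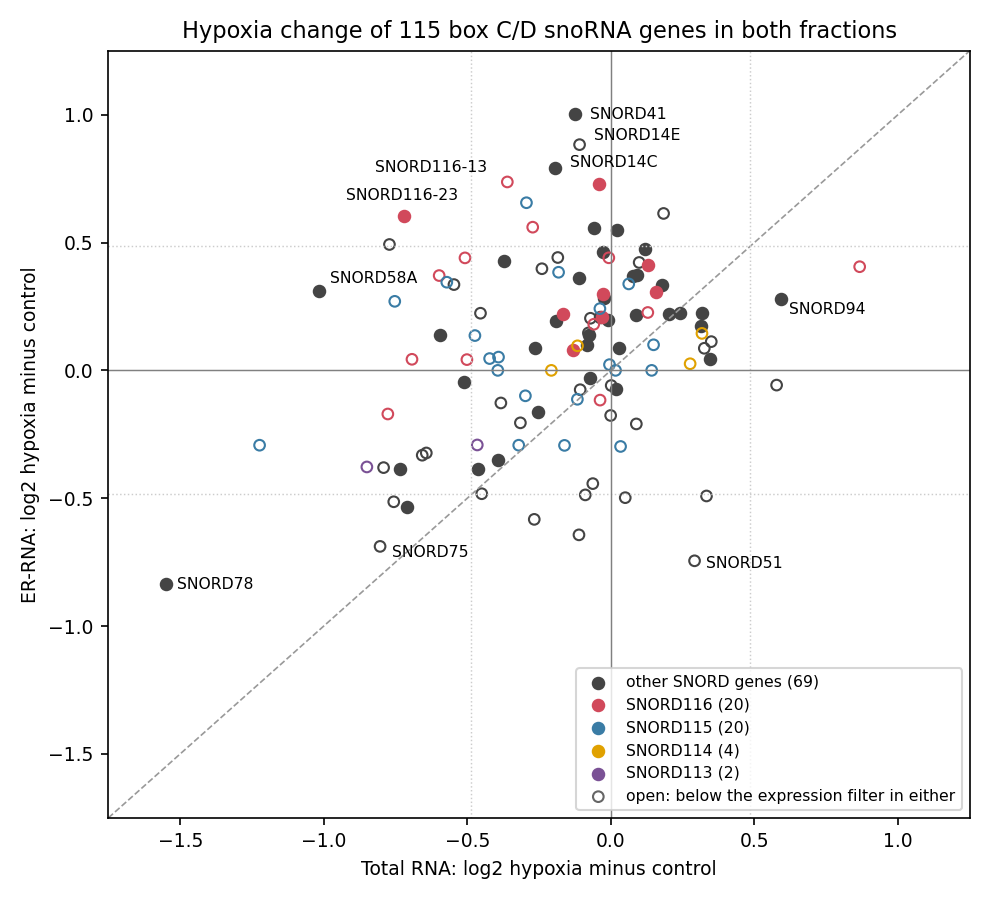
Log2 difference of hypoxia minus control in total RNA (x axis) and in ER-RNA (y axis) for the 115 SNORD genes; filled points passed the expression filter in both fractions, colours are families, dotted lines mark a fold change of 1.4 and the dashed line equal change in both. Of the 45 filled points 39 lie above the dashed line, SNORD78 lies lowest and leftmost, and 21 lie in the upper left quadrant, where total RNA read lower and ER-RNA higher.

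The changes in both fractions were then set against each other gene by gene, as ER-RNA change minus total RNA change, a value that uses all 4 arrays and, with 1 array each, cannot be tested. It was above 0 in 39 of the 45 SNORD genes that passed the filter in both fractions, where 48.5% of all such genes were above 0. Of all 115 it was above 0 in 86, against 51.9% of all genes. It exceeded a 1.4-fold difference in 11 of the 45, against 3.97% of all genes, and fell below one in 0 of the 45, against 6.3%. Among the 11, SNORD32B and SNORD83A passed in ER-RNA through the hypoxia array alone, and SNORD78 in total RNA through the control array alone. In each, the array that let the gene pass also raises this value, so the count of 11 depends in part on the filter. The median was 0.28 over the 45 and 0.24 over the 115, beside -0.01 and 0.01 in all genes.

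Among genes that passed in both fractions, the shift held in both parts of the family. It was above 0 in 31 of the 37 dispersed genes that passed in both fractions (median 0.24) and in all 8 SNORD116 genes that did (median 0.30). It did not hold in the 12 dispersed genes below 6 in total RNA under control conditions. Of these, 3 were above 0 (median -0.35), where 54.2% of all genes at that level were (median 0.03). Total RNA read lower and ER-RNA higher in 21 of the 45 (46.7%, all genes 10.5%), and the reverse was seen in 1, SNORD43, with 0.02 (total RNA) and -0.07 (ER-RNA), where 8.7% of all genes did the same. Across the 45 genes the differences in total RNA and ER-RNA had a Pearson's r of 0.47, where the 10851 genes of the whole array that passed in both gave 0.80. Genes of 1 pair of arrays share library and scale and are not replicates.

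SNORD58A had the highest value, 1.33: in total RNA it read lower, as given above, but in ER-RNA it read 9.98 under control conditions and 10.30 in hypoxia. SNORD116-23 also stood at 1.33, with 8.31 and 8.91 in ER-RNA against 8.56 and 7.84 in total RNA. SNORD49A, within SNHG29, followed with 1.26, reading 7.51 and 6.74 in total RNA and 5.78 and 6.27 in ER-RNA, where it did not pass the filter. In these 3 the total RNA and ER-RNA arrays moved in opposite directions. The lowest values came from genes that passed the filter in neither fraction: SNORD51 with -1.04, SNORD59A with -0.82 and SNORD56B with -0.63. Their values lay below the midpoint of each of the 4 arrays.

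The fractions themselves were compared next, and here the families read differently. ER-RNA minus total RNA under control conditions had a median of -1.12 over all SNORD genes and -1.11 over all genes, so the members as a whole lay at the median of the array. The median was -1.24 in the dispersed genes and -1.22 in SNORD115, but -0.27 in SNORD116. ER-RNA read above total RNA in 16 of the 115 SNORD genes (all genes 8.04%), and 9 of these were among the 20 SNORD116 genes. In hypoxia the count for SNORD116 was 12 of 20 (all genes 6.96%) and its median 0.32, beside -0.97 in the dispersed genes and -1.09 in all genes. Relative to all genes, the hypoxia median of all 115 members was 0.22, or 0.06 after quantile normalization over the 4 arrays.

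Within SNORD116 this depended on the level, and all genes with the highest values also sit closer to 0. Among genes reading above 12 in total RNA under control conditions the median over all genes was -0.47, and the 2 SNORD116 copies there gave 0.17. Between 6 and 8, where all genes gave -1.09, the 9 SNORD116 copies gave -0.37, and 19 dispersed genes gave -1.59. Below 6 the 5 SNORD116 copies gave -1.30, where all genes gave -1.20, so the low copies did not lie above the array. The hypoxia change was higher in ER-RNA than in total RNA in all 9 of these copies. Copies of this family are near-identical and their probe sets may share signal, so they do not count as 9 separate observations.

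The copies named by the rule illustrate this. SNORD116-13 read 6.02 and 5.65 in total RNA and 6.79 and 7.53 in ER-RNA, so that it lay 0.77 higher in ER-RNA under control conditions. SNORD116-27 read 7.03 and 6.34 in total RNA and 7.77 and 7.82 in ER-RNA. For both, the ER-RNA arrays were above the total RNA arrays in each condition. SNORD116-6 read 7.96 and 7.92 in total RNA and 7.58 and 8.31 in ER-RNA, so that the order of its unadjusted values turned in hypoxia. Relative to the median of all genes, its ER-RNA minus total RNA was above 0 in both conditions, at 0.74 and 1.48. Over the family the hypoxia difference was above 0 in 18 of 20 in ER-RNA, with a median of 0.30, and in 4 of 20 in total RNA, with a median of -0.10. The probe sets left out for naming several genes were mixed in total RNA. Those naming SNORD116-3 or SNORD116-4 gave 0.23 to 0.28, that of SNORD116-2 and SNORD116-6 gave -0.29, and those naming SNORD116-19 gave -0.04. In ER-RNA all of these read higher in hypoxia, and that of SNORD116-2 and SNORD116-6 was called with 0.77.

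Among the dispersed genes SNORD58A stood highest in ER-RNA minus total RNA under control conditions, with 0.95. The pseudogene SNORD13P1 gave 0.72 from values below the filter, at 2.81 in total RNA and 3.53 in ER-RNA. At the other end SNORD75 gave -3.33, SNORD54 -3.21, SNORD115-44 -3.02, SNORD36B -2.91 and SNORD13P2 -2.74. All 5 read below the midpoint of both ER-RNA arrays.

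**Figure D3:**
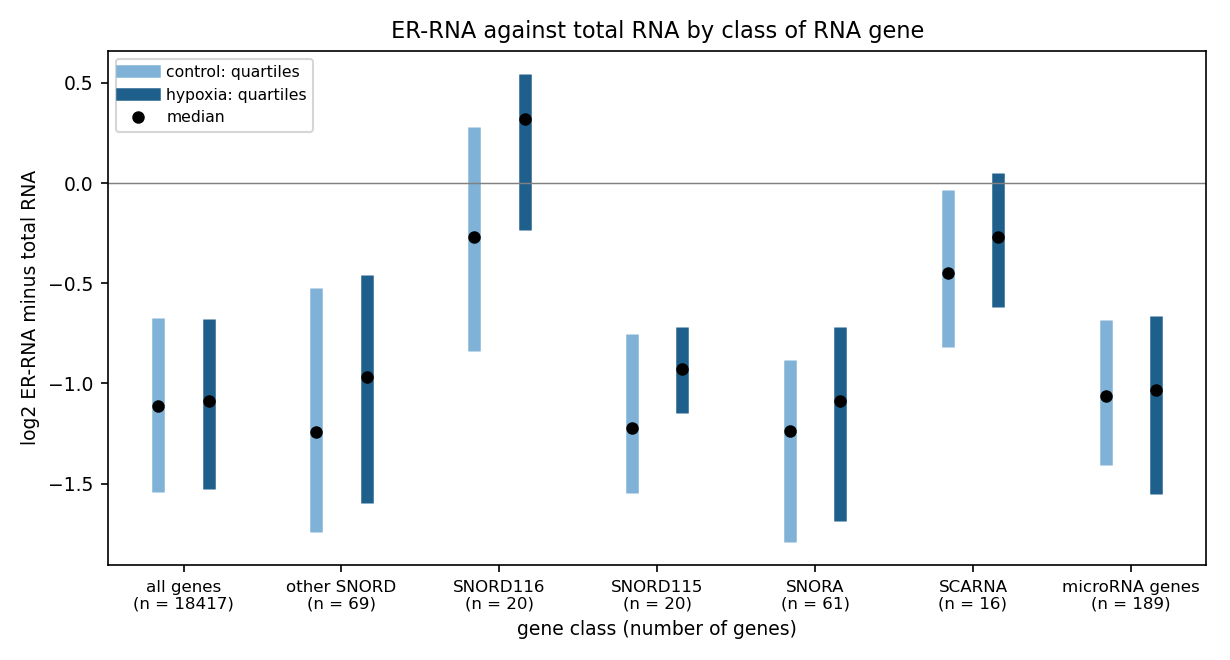
Log2 ER-RNA minus total RNA (y axis) under control conditions (light) and in hypoxia (dark) by class of RNA gene (x axis, with the number of genes); bars span the quartiles and dots are medians. SNORD116 lies above all genes (-0.27 against -1.11 under control conditions, 0.32 against -1.09 in hypoxia), and SNORD115 and the dispersed SNORD genes lie close to them. SCARNA genes also lie above all genes, with -0.45 and -0.27.

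Members that share a host gene were then described together, since they start from the same precursor. Of the 69 dispersed genes 67 lay within the span of a host, 41 hosts in all. Hosts were assigned by position alone, because the gene table gives no strand, and the pseudogenes may lie within genes that do not produce them. Protein-coding hosts held 48 of these genes, 21 of them ribosomal protein genes, and long non-coding RNAs held 19. The lower signal in total RNA was uneven over these classes: 17 of 19 genes in non-coding hosts read lower in hypoxia (median -0.45), 15 of 21 in ribosomal protein hosts (median -0.06) and 12 of 27 in other coding hosts (median 0.08). Genes of 1 host are not independent, and GAS5 alone gave 7 of the 19; without it 10 of 12 read lower, with a median of -0.38. Of the 6 calls in total RNA, 4 were dispersed genes in non-coding hosts, and the tandem gene SNORD116-23 lies within SNHG14, which is also non-coding.

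In GAS5, a non-coding host whose spliced RNA is known to rise when growth stops, all 7 members read lower in total RNA in hypoxia, from -1.55 to -0.07. In ER-RNA 5 of the 7 read lower, from -0.84 to 0.14. Besides SNORD78 and SNORD75, SNORD79 read 9.28 and 8.54 in total RNA and 7.54 and 7.15 in ER-RNA. SNORD44 read 8.98 and 8.47 in total RNA and 6.78 and 6.74 in ER-RNA, and SNORD77 read 4.49 and 3.70 in total RNA and 2.80 and 2.42 in ER-RNA. SNORD74 and SNORD81 moved least, with -0.07 and -0.26 in total RNA and 0.14 and 0.09 in ER-RNA. The members of this single transcript thus differed in total RNA by 1.48 between the lowest and the highest, and each lay higher in the ER-RNA change than in the total RNA change. No probe set names GAS5 alone.

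In RPL13A all 4 members read lower in total RNA and 3 of 4 read higher in ER-RNA. SNORD33 read 13.37 and 13.36 in total RNA and 12.71 and 12.90 in ER-RNA. SNORD32A read 11.68 and 11.57 in total RNA and 10.61 and 10.97 in ER-RNA, and SNORD35A read 10.53 and 10.50 in total RNA and 9.48 and 9.77 in ER-RNA. The fourth, SNORD34, parted from them with -0.46 in total RNA and -0.39 in ER-RNA. In SNHG1, another non-coding host, SNORD28 read 8.09 and 7.70 in total RNA and 6.41 and 6.06 in ER-RNA, and SNORD30 read 7.83 and 7.76 in total RNA and 5.87 and 6.02 in ER-RNA. None of the members in RPL13A or SNHG1 was called.

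**Figure D4:**
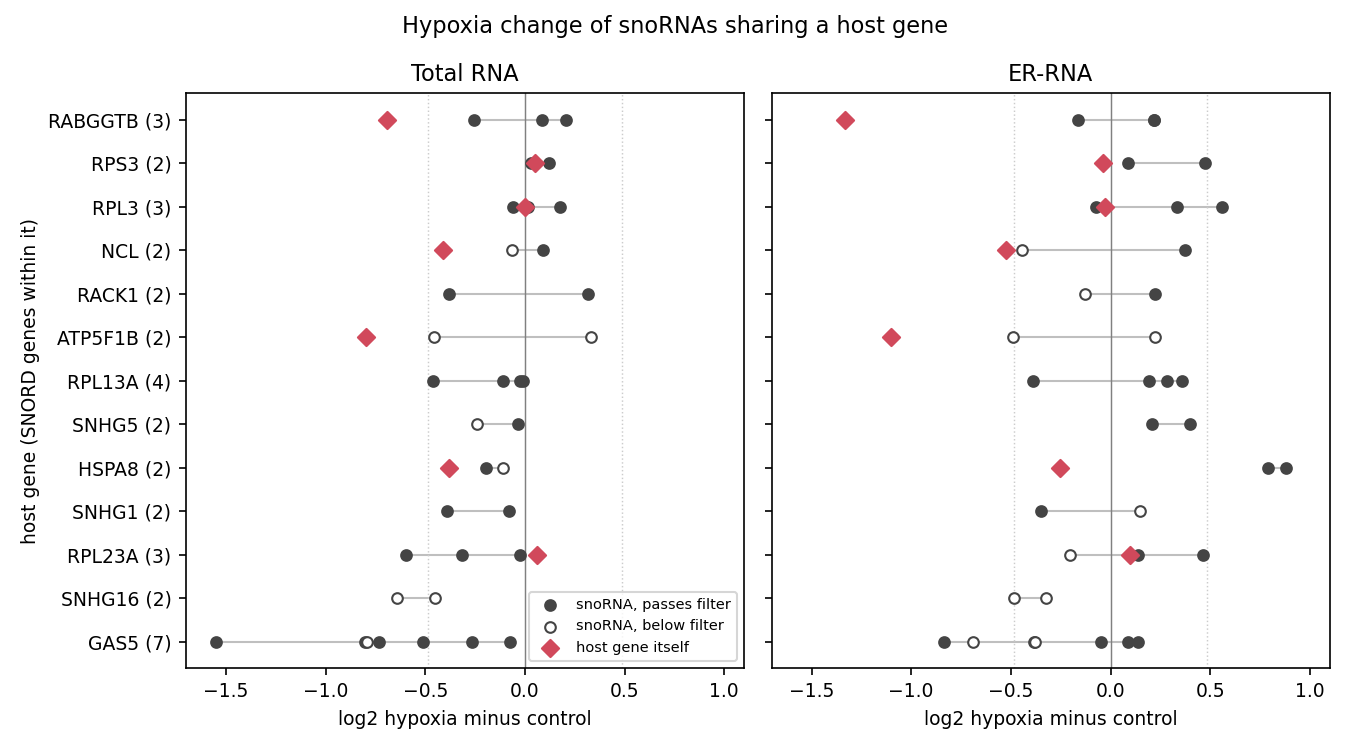
Log2 hypoxia minus control in total RNA (left) and ER-RNA (right) for SNORD genes that share a host with at least 1 other member (y axis, hosts with the number of members, ordered by their median in total RNA, for the hosts reported here); filled circles passed the expression filter, open circles did not, red diamonds are the host's own probe set where there is one, and dotted lines mark a fold change of 1.4. GAS5 members spread from -1.55 to -0.07 in total RNA, and in HSPA8 both members lie right of the host in ER-RNA.

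A value for the host itself was at hand for 35 of the dispersed genes in 25 hosts. The snoRNA's hypoxia difference was higher than that of its host in 23 of the 35 in total RNA (median of snoRNA minus host 0.17) and in 26 of the 35 in ER-RNA (median 0.36, or 0.22 after quantile normalization over the 4 arrays). Across the 35 pairs the differences of snoRNA and host had Pearson's r values of -0.28 (total RNA) and -0.02 (ER-RNA), a description over pairs that share arrays and in part hosts. RABGGTB, a subunit of the enzyme that prenylates Rab proteins, differed by -0.69 in total RNA and -1.33 in ER-RNA, whereas its snoRNAs SNORD45A, SNORD45B and SNORD45C lay between -0.26 and 0.20 in total RNA and between -0.16 and 0.22 in ER-RNA. RPL3 differed by 0.00 and -0.03 and its 3 snoRNAs lay between -0.06 and 0.18 in total RNA and between -0.07 and 0.56 in ER-RNA.

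Other small non-coding RNA genes were set beside the members to see which of the features they share. The box H/ACA snoRNAs (SNORA, 61 genes), which guide pseudouridylation, read higher in hypoxia in 41 of 61 in total RNA (median 0.16) and 45 of 61 in ER-RNA (median 0.24). In total RNA the median over all SNORD genes was -0.11. Among genes that passed in total RNA the medians were 0.19 in SNORA, -0.07 in SNORD and -0.06 in all genes. By the median of those that passed, SNORA thus parted from all genes in total RNA and SNORD did not. The Cajal body RNAs (SCARNA, 16 genes), which guide modification of spliceosomal RNAs, read higher in 13 of 16 in total RNA (median 0.24) and 14 of 16 in ER-RNA (median 0.59). In ER-RNA minus total RNA the SCARNA genes also lay above all genes, with medians of -0.45 under control conditions and -0.27 in hypoxia, so SNORD116 was not alone in this. The ER-RNA change exceeded the total RNA change in 19 of 31 SNORA genes and 9 of 11 SCARNA genes that passed in both fractions, against 39 of 45 SNORD genes. MicroRNA genes lay on the other side, with 14 of 35. Among single nuclear RNAs the same value was 0.73 for RMRP, an RNA of ribosomal RNA processing, 0.14 for RPPH1 and -0.77 for MALAT1. The part that the nuclear content of the fraction had in these values was not tested.

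The proteins of the particle were described from a list of 25 genes, of which 23 were measured, not including NOP56 and SNU13. None was called higher in either fraction, and 6 were called lower in total RNA and 9 in ER-RNA, where 7.45% and 8.25% of all genes that passed were called lower. The list, of which 22 genes passed in each fraction, had a median of -0.49 (total RNA) and -0.65 (ER-RNA). These lay below the medians of all genes that passed, at -0.06 and -0.04, and of all genes, at 0.03 and 0.06. Fibrillarin itself (FBL), the methyltransferase, read 10.99 and 11.03 in total RNA and 11.04 and 11.14 in ER-RNA and moved little. NOP58, the scaffold protein beside it, read 9.73 and 9.36 in total RNA and 9.24 and 7.90 in ER-RNA, and was called lower in ER-RNA with -1.34.

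The assembly factors and the enzymes that trim or modify snoRNAs gave most of these calls. Of 8 assembly factors 3 were called lower in total RNA and 4 in ER-RNA. RUVBL1, an ATPase of the R2TP chaperone complex, read 10.61 and 9.35 in total RNA and 9.75 and 8.08 in ER-RNA, and RPAP3, which belongs to the same complex, gave -1.05 and -1.28. ZNHIT6 (BCD1), an early assembly factor, gave -1.09 and -1.16, and NUFIP1, an assembly factor that binds SNU13, was called only in ER-RNA with -1.11, beside -0.55 in total RNA. Of 9 trimming and decay genes 3 were called lower in both fractions: NOLC1, a nucleolar chaperone of snoRNAs, with -1.45 and -1.08, the exonuclease PARN with -1.20 in both, and the cap methylase TGS1 with -0.87 and -0.88. Of 4 partners of the U3 particle RRP9 alone was called, in ER-RNA with -1.07.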

How the data were processed

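Total RNA and ER-RNA of HT1080 cells under control conditions and in hypoxia were measured on 4 Affymetrix Human Gene 1.0 ST arrays, 1 per group, each with RNA pooled from 5 experiments. Samples were grouped by the labels. RMA was the normalization applied by the authors, and the deposited unit is log2. Partek 6.4 is the tool in the submitters' processing notes, and the sources used here give no genome build. Of 33297 probe sets 19460 name 1 gene in the platform annotation, and 19429 of these were matched to RefSeq by gene identifier. Where a gene had several probe sets, that of the highest 4-array mean was kept.

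The thresholds of the calls were those of the study's methods: the 50% quantile of expression, a fold change over 1.4 and a z-score over 3. The methods do not say how the quantile applies to a pair of arrays. At least 1 array of the pair above its quantile was the reading used here. The SD of the z-score came from a loess curve (span 0.75, degree 2) fitted over all probe sets that passed, in R 4.3.3 with limma 3.58.1 for quantile and loess alternatives. Here the methods were departed from: they determine the curve in treatment and control groups each on their own, and 1 array per group gives no SD, so both arrays of a pair entered 1 curve. The call script was tested on simulated data. With 1 array per group no test across samples is possible, and a called gene has no replicate check. Hosts were the smallest RefSeq gene span around a snoRNA that is no small RNA and has no provisional LOC symbol. The same strand had been planned as a condition, but the table gives none. Genes named were the 6 highest and 6 lowest called members per fraction (by fold alone where fewer were called), the 5 highest and 5 lowest in ER-RNA minus total RNA under control conditions, the 3 highest and 3 lowest between the fractions, the leading member of each tandem family, the processing guides, the members in GAS5, SNHG1 and RPL13A, and the particle proteins. SNORD32B, SNORD43, SNORD116-18, SNORD13P3, the left-out SNORD116 probe sets and the snoRNAs in RABGGTB and RPL3 were named after their values were seen. A host gene and its members enter the counts but are not reported here by name. The members and lists were chosen with earlier results of these data known, so no count is independent evidence. The 13 alternative settings covered normalization, expression filter, call rule, SD model and probe sets per gene.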

Additional observations from a re-analysis of the deposited data

Results flagged for a closer look

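SNORD116-23 read lower in hypoxia in total RNA (8.56 to 7.84, -0.72) and higher in ER-RNA (8.31 to 8.91, 0.60), each by more than 1.4-fold and above the expression filter. The difference between the fractions was 1.33 on the log2 scale. It was singled out because the fractions moved in opposite directions under the same contrast, and the difference was not tested, since each group is 1 array.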

How the results depend on the processing

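Of the medians for all SNORD genes, SNORD116 and the hosts, 1 changed sign: ER-RNA minus total RNA under control conditions, relative to all genes, was -0.01 and became 0.17 in genes above the midpoint of at least 1 array. Counts of calls followed the filter and the SD. SNORD genes called higher in total RNA numbered 0 in the report, 2 with no filter, and 1 with both arrays above the 50% quantile or by fold alone. Those called lower in total RNA numbered 6, against 18 with no filter, 3 with both arrays above the 50% quantile, 0 with the 75% quantile, 10 by fold alone, 2 with a fold change over 2 and 1 with the scaled MAD. In ER-RNA the 3 called higher became 1 with the 75% quantile or a fold change over 2, 8 by fold alone and 0 with the scaled MAD, and the 0 called lower became 3 with no filter or by fold alone. Among tandem genes, those passing the filter went from 8 in total RNA and 14 in ER-RNA to 5 and 8 with the 75% quantile and to all 46 with no filter. Tandem genes called in total RNA went from 0 higher and 1 lower to 1 and 8 with no filter, and those called lower to 0 with the 75% quantile, a fold change over 2 or the scaled MAD. The 1 called higher in ER-RNA, SNORD116-13, gave way to SNORD115-44 with no filter, and the count went to 0 with the 75% quantile, a fold change over 2 or the scaled MAD and with centred arrays, and to 3 by fold alone. The median change in ER-RNA over all SNORD genes was 0.0285 with centred arrays against 0.11, and the hypoxia median of ER-RNA minus total RNA, relative to all genes, was 0.22 in the report, 0.47 in genes above the midpoint of at least 1 array and 0.06 after quantile normalization over the 4 arrays. Apart from the filters, the cause of these moves was not tested. Averaging probe sets and counting shared values once left the SNORD values as they were, since each has 1 probe set of its own. No paired analysis was possible because each group is 1 array, and for the same reason no array could be left out.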

Other observations

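Probe sets that name a SNORD gene together with other genes were not counted above. SNORD5, named with its host TAF1D, read 11.68 and 10.34 in total RNA and was called lower with -1.34, and it read 12.11 and 11.40 in ER-RNA. SNORD26, named with SNHG1, read 7.49 and 6.48 in ER-RNA and was called lower there with -1.01. The U3 probe sets, which name SNORD3A to SNORD3D together and share 1 set of values, read 9.71 and 9.60 in total RNA and 9.32 and 9.55 in ER-RNA. SNORD29, named with SNHG1, gave -0.18 (total RNA) and 0.63 (ER-RNA). These genes were named after their values were seen.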
